A study of Arabidopsis thaliana with 12 samples.

Results

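The mitochondrial genome transcripts described here are the loci of the deposited count table whose identifier begins with ATMG, the prefix of Arabidopsis mitochondrial genes, and that held at least 10 counts summed over the 12 libraries. Of 152 ATMG loci, 102 met this rule, out of 32833 loci in the table. Of the other 50, 38 held 1 to 9 counts and 12 held none. RNA was measured by sequencing in Arabidopsis thaliana seedlings 12 days after germination, in 4 genotypes with 3 libraries each: nrpb2-3, ssrp1-2, spt16-2 and the wild type Columbia-0 (Col-0). nrpb2-3 is a mutant of NRPB2, the second-largest subunit of RNA polymerase II, and ssrp1-2 and spt16-2 are mutants of the subunits SSRP1 and SPT16 of FACT, a histone chaperone that works at transcribed nucleosomes. Seeds of all 4 genotypes were stratified 4 days at 4 °C and plants were grown on soil at 21 °C under long days. Total RNA was taken, and whether RNA with poly(A) tails was selected is not given in the sources used here. Nothing in the labels tells whether the 3 libraries of a genotype are separate plants or sowings, so the p-values cover the spread among libraries, and this spread may be technical.

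Plant mitochondria keep a genome of their own that codes for subunits of the respiratory complexes I, III and IV, of ATP synthase, for cytochrome c maturation proteins, and for some ribosomal proteins, rRNAs and tRNAs. It is transcribed inside the organelle by phage-type RNA polymerases coded in the nucleus, not by RNA polymerase II, and it is not wrapped in the nucleosomes on which FACT works. The transcripts are trimmed, spliced and edited by nuclear-coded proteins, and a poly(A) tail marks many of them for decay. Arabidopsis also carries a large copy of the mitochondrial genome within its nuclear chromosome 2, so sequence alone can leave the origin of a read unclear.

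The sequences of atp8 and atp9, which code for subunits 8 and 9 of the membrane part of ATP synthase, are shown because the mitochondrial loci with the smallest adjusted p-values below, ATMG00480 and ATMG01080, carry these names in RefSeq notes, and because each has a copy on chromosome 2. They were read from RefSeq's TAIR10.1 assembly, whose mitochondrial sequence may differ from that of the TAIR10 build the authors named. The opening 150 bases of atp8 lie at chrMT:247343-247492 on the minus strand, and the copy lies at chr2:3386292-3386441 on the plus strand, within AT2G07707. The 225 bases of atp9 lie at chrMT:270961-271185 on the minus strand, and the copy lies at chr2:3251856-3252080 on the minus strand, within AT2G07671. Capitals mark the start codon, and 0 bases differed between each gene and its copy.
atp8: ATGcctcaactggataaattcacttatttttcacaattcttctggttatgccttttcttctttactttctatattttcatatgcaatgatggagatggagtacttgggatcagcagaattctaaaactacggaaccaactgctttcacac
atp8 copy: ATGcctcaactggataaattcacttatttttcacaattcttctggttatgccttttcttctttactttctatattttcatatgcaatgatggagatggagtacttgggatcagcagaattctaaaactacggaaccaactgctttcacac
atp9: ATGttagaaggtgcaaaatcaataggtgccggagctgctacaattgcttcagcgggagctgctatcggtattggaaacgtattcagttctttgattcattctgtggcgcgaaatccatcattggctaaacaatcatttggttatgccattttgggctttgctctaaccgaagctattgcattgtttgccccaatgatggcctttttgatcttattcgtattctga
atp9 copy: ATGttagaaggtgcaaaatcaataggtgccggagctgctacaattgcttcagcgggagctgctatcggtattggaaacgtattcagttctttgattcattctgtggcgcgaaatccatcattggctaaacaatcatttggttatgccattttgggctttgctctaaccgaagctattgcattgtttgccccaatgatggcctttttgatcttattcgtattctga

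Copies on chromosome 2 covered many of the mitochondrial protein genes, in whole or in part. RefSeq notes tie 39 loci of chromosome 2 to 38 of the 102 mitochondrial loci. All 39 aligned to the mitochondrial genome at 99% identity or more (99.72 to 100%, median 99.962%). The best alignment covered 59.3% of AT2G07777, the partner of ATMG01090, 89.6% of AT2G07798 and 89.8% of AT2G07749. It covered 100% of every other locus. Exact matches were sought only in the stretch of chromosome 2 that holds these paired loci, not in the rest of the chromosome. Of all windows of 100 bases in the 33 protein-coding entries of the RefSeq mitochondrial genome, 74.8% occurred there letter for letter. Every window of 15 of these entries did, atp1, atp8, atp9, cob, cox3 and nad3 among them. Of cox2, 2.17% of the windows did, and of rps3 2.12%. In that stretch no window was found for the cytochrome c oxidase gene cox1, the complex I genes nad9 and nad4L, or atp4. None was found there for the cytochrome c maturation gene ccmB or the 3 rRNA genes either.

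The counts of some paired loci ran close to each other, while those of others lay far apart. ATMG01030, of unknown product, held 15 counts against 13 on AT2G07673, and differed by at most 1 count in each of the 12 libraries. ATMG01280, noted as a cytochrome c oxidase subunit II-like protein, held 279 counts against 270 on AT2G07695. ATMG00480 (atp8) held 375 against 250 on AT2G07707, and ATMG01080 (atp9) held 832 against 1135 on AT2G07671. Farther apart were ATMG00560, noted as an OB-fold protein, with 151 against 2388 on AT2G07715, and ATMG00220 (apocytochrome b) with 93 against 309 on AT2G07727. These are raw counts, not divided by length. The lengths implied by the deposited values were 1050 bases for ATMG00560 and 1181 for ATMG00220. AT2G07715 spans 2565 bases and AT2G07727 3243. The part of length in these differences was not tested. Over the 22 pairs with at least 50 counts at each locus, the mitochondrial total ran from 0.0632 to 1.5 times the chromosome 2 total, with a median of 0.734. How reads that fit several places were counted is not given in the sources used here, so for these loci the counts of the mitochondrial gene and of its nuclear copy cannot be told apart.

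**Figure D1:**
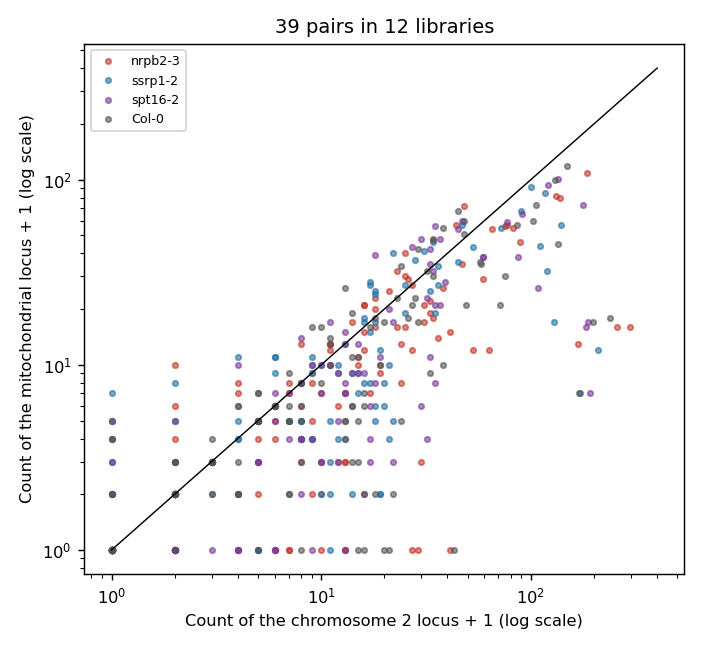
Count of each mitochondrial locus plus 1 (vertical, log scale) against the count of its chromosome 2 partner plus 1 (horizontal, log scale), for 39 pairs in 12 libraries, one point per pair and library, coloured by genotype. The line marks equal counts. The points of all 4 genotypes lie along the same band, with some pairs far below the line, such as ATMG00560 with 151 counts against 2388 on AT2G07715. Counts are not divided by length.

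Mitochondrial transcripts were a very small share of every library. The 102 loci held 45631 counts in all, 2383 to 6885 counts per library of 39483328 to 43434901 counts. The share of all counts was 0.00908%, 0.00929% and 0.0138% in the nrpb2-3 libraries, 0.00913%, 0.00871% and 0.00667% in ssrp1-2, 0.00742%, 0.00903% and 0.00602% in spt16-2, and 0.0171%, 0.00801% and 0.00800% in Col-0. Col-0 replicate 1 was the highest of the 12 and nrpb2-3 replicate 3 the next, while the other 10 lay between 0.00602% and 0.00929%. The means were 0.0107 ± 0.00266% in nrpb2-3, 0.00817 ± 0.00132% in ssrp1-2, 0.00749 ± 0.00151% in spt16-2 and 0.0110 ± 0.00526% in Col-0 (SD, n = 3 each). Each mutant's range overlapped that of Col-0. Without replicate 1 the Col-0 mean was 0.00800%, below the nrpb2-3 mean and between those of ssrp1-2 and spt16-2. Counting error was small beside this spread, with a 95% Wilson interval of 0.0167 to 0.0175% in Col-0 replicate 1. A share of counts cannot tell the number of mitochondria-rich cells apart from the RNA per cell.

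The chloroplast share of counts was also highest in Col-0 replicate 1. Col-0 replicates 2 and 3 held 0.173% and 0.199%, and every mutant library lay lower, at 0.0697 to 0.157%. It averaged 0.112 ± 0.0431% in nrpb2-3, 0.132 ± 0.0345% in ssrp1-2, 0.0923 ± 0.0204% in spt16-2 and 0.276 ± 0.157% in Col-0 (SD, n = 3 each), with 0.457% in Col-0 replicate 1. Of the 47 mitochondrial loci with enough counts to test, 22 had their highest level of all 12 libraries in Col-0 replicate 1. In 21 of the 47 (44.7%) its level was over 2 times the mean of Col-0 replicates 2 and 3, against 3.90% of all genes tested. The counts of mitochondrial loci called against Col-0, and the loci called, are therefore given below also without this library.

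**Figure D2:**
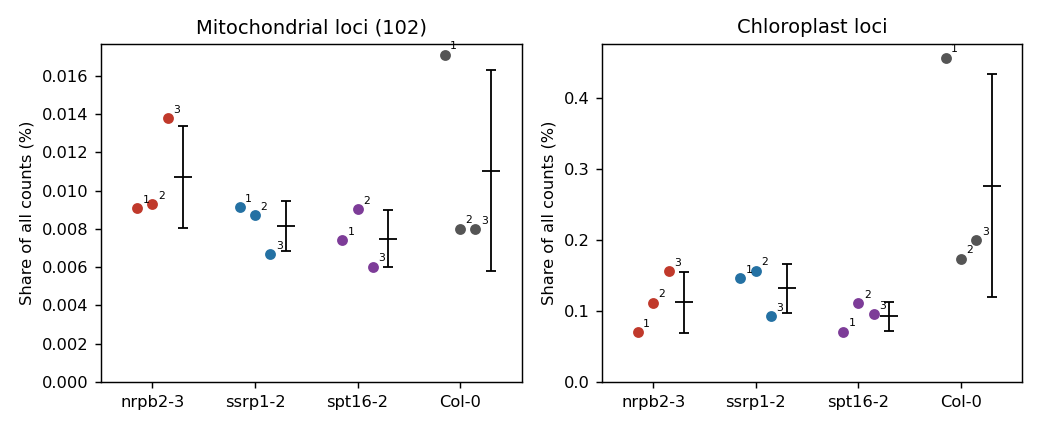
Share of all counts (%) on the 102 mitochondrial loci (left) and on the chloroplast loci (right) in each library. Points are libraries, numbered by replicate, and the black bar gives the mean ± SD of 3. Col-0 replicate 1 stands highest in both panels, at 0.0171% and 0.457%.

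Most of the mitochondrial counts fell on 4 loci, none of which has a name in the annotations used here. ATMG01390 held 11000 counts, ATMG00020 10619, ATMG09450 5618 and ATMG09730 4139, and the next locus, ATMG00030, held 1254. The top 4 together made up 67.7 ± 4.97% of mitochondrial counts in nrpb2-3, 67.4 ± 0.191% in ssrp1-2, 64.5 ± 1.01% in spt16-2 and 71.8 ± 4.26% in Col-0 (SD, n = 3 each). The median locus held 62 counts over all 12 libraries, 42 loci held at least 100, and 47 had no library at 0. The RefSeq mitochondrial genome lists rRNA genes of 3169, 1935 and 118 bases (rrn26, rrn18 and rrn5), and the lengths implied by the deposited values are 1935 bases for ATMG01390, 2568 for ATMG00020 and 118 for ATMG01380. No annotation used here ties these loci to the rRNA genes.

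On the scale of the deposited values per gene length, averaged over all 12 libraries, the order changed. ATMG09450 stood highest at 223 and ATMG09730 next at 164, each with an implied length of 80 bases. ATMG01390 (17.9), ATMG00020 (12.7) and ATMG00030 (11.6) followed at far lower levels, and ATMG00330 (5.97), ATMG01080 (5.32), ATMG00665 (5.09), ATMG01370 (4.63) and ATMG00780 (3.44) completed the top 10. The value of ATMG00665 rests on 34 counts in all and an implied length of 22 bases. Those of ATMG00330 and ATMG00780 rest on 166 and 95 counts and 88 bases each. Over so short a length, few counts give a high value. ATMG01080, the atp9 locus, was the only one of these 10 with a product named by a RefSeq note. Loci with an implied length under 100 bases numbered 14 and held 22.4% of the mitochondrial counts. By raw counts, not divided by length, ATP synthase loci led those with a descriptive note. After atp9 with 832 counts came ATMG01190 (ATP synthase subunit 1) with 697. ATMG00180 (noted as a cytochrome C biogenesis protein) had 593 and ATMG00590 (noted as a Cytochrome b/b6 protein) 590. Per length the order after atp9 was another: ATMG00480 (2.57), ATMG00590 (1.91), ATMG01090 (1.90), ATMG01190 (1.43) and ATMG00180 (1.37). The notes come from chromosome 2 loci, so mitochondrial loci without a noted partner there had no place in either order.

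The mix of loci differed between libraries of one genotype as well as between genotypes. ATMG00020 made up 22.4%, 23.4% and 33.5% of mitochondrial counts in nrpb2-3, 24.3%, 19.1% and 15.4% in ssrp1-2, 19.6%, 24.4% and 16.0% in spt16-2, and 25.1%, 21.5% and 22.2% in Col-0. Its lead in nrpb2-3 rested on replicate 3, which also held 311 counts of ATMG00030 where the other 11 libraries held 35 to 180. ATMG01390 made up 22.7 ± 3.70% in nrpb2-3, 25.1 ± 4.79% in ssrp1-2, 18.2 ± 1.92% in spt16-2 and 27.4 ± 2.31% in Col-0 (SD, n = 3 each).

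The loci below were named because their share of the mitochondrial counts did not overlap between a mutant and Col-0 and because they averaged at least 50 counts per library in the mutant or in Col-0. The lack of overlap is thus how they were chosen, and no test is given. In spt16-2 the share of ATMG01390 was lower (16.1 to 19.9%, against 25.6 to 30.0% in Col-0). Those of ATMG09450 (14.6 to 16.4%, against 12.1 to 12.6% in Col-0) and ATMG09730 (9.93 to 12.9%, against 8.32 to 9.51% in Col-0) were higher. In nrpb2-3 ATMG01390 lay at 18.5 to 25.4%, just under the 25.6 to 30.0% of Col-0, and ATMG00580 at 1.27 to 1.99%, against 0.523 to 0.854% in Col-0. No locus of ssrp1-2 met both conditions. Loci with fewer counts whose shares did not overlap were not listed, such as ATMG00480 in nrpb2-3 and ATMG00690 in ssrp1-2. A share is bounded by the other loci, so a higher share of one locus can stand for a lower share of another.

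**Figure D3:**
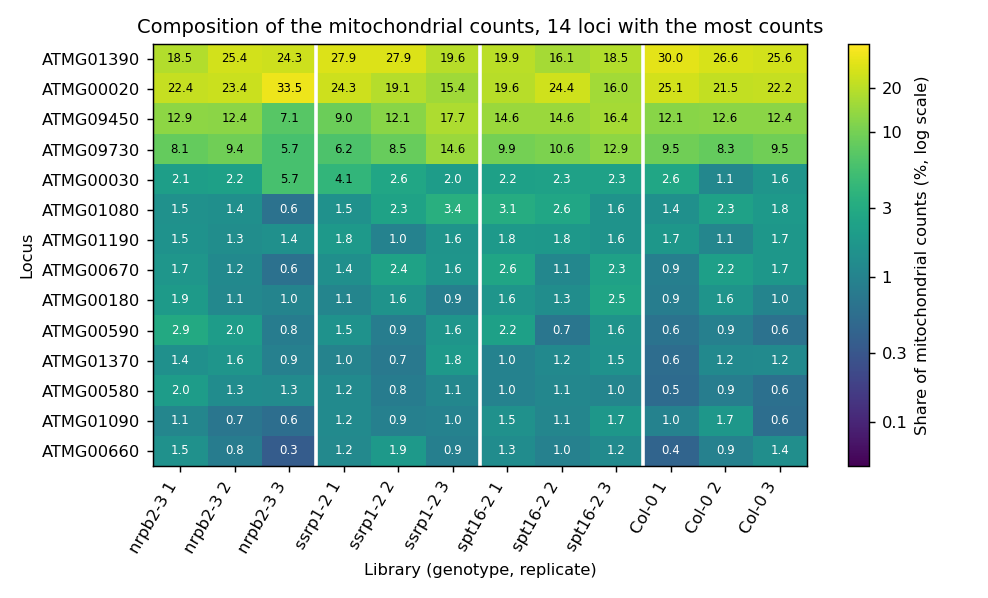
Share (%) of the mitochondrial counts of each library held by the 14 loci with the most counts, with 12 libraries in columns (genotype and replicate) and loci in rows; the colour scale is logarithmic and the number in each cell is the share. ATMG01390 and ATMG00020 lead in every library except ssrp1-2 replicate 3 and spt16-2 replicate 3, where ATMG09450 takes 17.7% and 16.4%, and nrpb2-3 replicate 3 stands out for ATMG00020 at 33.5%.

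Low counts limited the tests. After the filter on low counts, 47 of the 102 loci were tested, and these held 96.4% of the mitochondrial counts, while 55 were not tested. The lowest total among the tested loci was 73 counts and the highest among the others 86. Just inside the rule for membership stood ATMG00430, ATMG00970, ATMG00120 and ATMG00350 with 10 counts each, and just outside it ATMG01350 with 9. A genotype held no count for 16 of the 102 loci. A count of 0 over the 3 libraries of a genotype allows up to 3 counts, which is 2.42e-06% of all counts in nrpb2-3 and 2.50e-06% in Col-0, counting error only.

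Among loci at 0 in a genotype, ATMG00200 had 3, 3 and 11 counts in nrpb2-3, 0, 0 and 0 in ssrp1-2, 1, 0 and 0 in spt16-2, and 0, 1 and 5 in Col-0. ATMG00010 had 0 counts in nrpb2-3 and ssrp1-2, 1 in spt16-2, and 8, 1 and 2 in the Col-0 libraries. ATMG00440 and ATMG01140, whose counts were identical in all 12 libraries, each had 10 in nrpb2-3, 2 in ssrp1-2 and 0 in spt16-2 and Col-0. The replicate spread of these low counts overlapped between nrpb2-3 and Col-0 for ATMG00200, and no fold is given.

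The comparison of nrpb2-3 with Col-0 addresses whether mitochondrial transcripts differ when RNA polymerase II itself carries a mutation. In this comparison 5 mitochondrial loci were called lower and 0 higher, with a threshold of 0.05 on the p of edgeR's quasi-likelihood test after Benjamini-Hochberg adjustment across the 20471 genes tested. Over all genes tested, 15.1% were called lower and 15.8% higher, 30.9% in either direction. The 5 of 47 lower calls are a smaller share than this background. At an unadjusted p under 0.05, 10 of the 47 were lower and 0 higher. DESeq2, which was run on all 102 loci here and below, called 7 lower and 0 higher. For counts at an unadjusted p or by DESeq2, here and below, the share over all genes is not given. They therefore show no excess over all genes. The median log2 fold change of the 47 was −0.42, with 35 negative, beside 0.05 for all genes. The counts depended on the scale, as described below, and on Col-0 replicate 1, without which the median was −0.04 and 1 locus was lower and 2 (ATMG00080 and ATMG00210) higher.

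ATMG00480, the atp8 locus, had the lowest fold change of the 47. It stood at 0.246, 0.428 and 0.204 CPM in nrpb2-3, against 1.38, 1.183 and 0.672 CPM in Col-0, with library sizes scaled by TMM (scaled CPM below). They rest on 12, 22 and 12 counts in nrpb2-3 and 47, 41 and 25 in Col-0, and the highest nrpb2-3 library lay below the lowest Col-0 library. The log2 fold change was −1.87 ± 0.48 (SE, edgeR adjusted p = 0.0105). This call was kept in each of the 14 alternatives run, with log2 fold changes of −2.26 to −1.14 and adjusted p of 0.00134 to 0.0432.

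ATMG01080, the atp9 locus, was the other ATP synthase member called. It stood at 1.11, 1.09 and 0.579 scaled CPM in nrpb2-3, against 2.90, 2.08 and 1.58 in Col-0, with no overlap. The log2 fold change was −1.24 ± 0.39 (SE, edgeR adjusted p = 0.0272). The call was lost in 3 of 14 alternatives: without Col-0 replicate 1 (−0.99, adjusted p = 0.105), without nrpb2-3 replicate 3 (adjusted p = 0.1002) and with library totals (−0.72, adjusted p = 0.118).

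Their chromosome 2 partners were lower too, and reads of a gene and its copy cannot be told apart. AT2G07707 had a log2 fold change of −1.67 ± 0.58 (SE, edgeR adjusted p = 0.0425) and AT2G07671 one of −1.28 ± 0.34 (SE, edgeR adjusted p = 0.0124). Of the 23 partner loci tested, these were the 2 called lower and 0 were called higher, where 15.1% and 15.8% of all genes tested were. When each mitochondrial locus was summed with its partner, an alternative chosen after seeing the data, ATMG00480 with AT2G07707 stayed called at −1.79.

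The other 3 called loci have no name in the annotations used here. ATMG09450 stood at 9.72, 9.73 and 6.66 scaled CPM in nrpb2-3, against 24.3, 11.5 and 10.7 in Col-0 (log2 fold change −0.83 ± 0.28, edgeR adjusted p = 0.0366). ATMG09730 stood at 6.13, 7.38 and 5.35 scaled CPM in nrpb2-3, against 19.0, 7.59 and 8.22 in Col-0 (−0.89 ± 0.30, edgeR adjusted p = 0.0402). For both, every nrpb2-3 library lay below Col-0 replicates 2 and 3, the highest of them narrowly and nrpb2-3 replicate 3 by the most. Col-0 replicate 1 stood far above.

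Without Col-0 replicate 1, ATMG09450 had a log2 fold change of −0.35 (edgeR adjusted p = 0.198) and ATMG09730 one of −0.33 (adjusted p = 0.242), so neither was called. Each of these calls was lost in 7 of 14 alternatives, also without nrpb2-3 replicate 1, without nrpb2-3 replicate 3 and with library totals. ATMG00690 stood at 0.287, 0.292 and 0.443 scaled CPM in nrpb2-3, against 1.29, 0.664 and 0.537 in Col-0 (−1.27 ± 0.46, edgeR adjusted p = 0.0497). It was the closest to the threshold, and its call was lost in 9 of 14 alternatives, among them without Col-0 replicate 1 (−0.81, adjusted p = 0.231) and with the replicate number as a block (adjusted p = 0.0661). The block also ended the call of ATMG09730 (adjusted p = 0.0585).

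**Figure D4:**
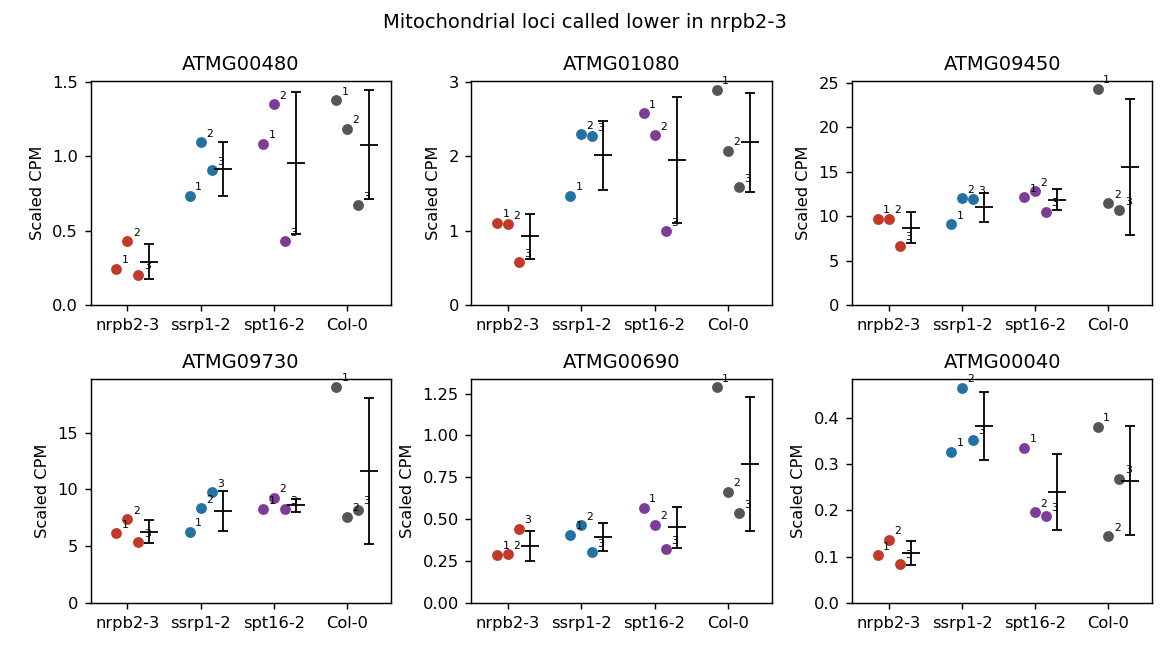
Scaled CPM of the 6 mitochondrial loci called lower in nrpb2-3, against Col-0 or against the mean of the FACT mutants, in each library. Points are libraries, numbered by replicate, and the black bar gives the mean ± SD of 3. ATMG00480 in nrpb2-3 lies at 0.204 to 0.428, below all other libraries, while the gap for ATMG09450 and ATMG09730 is drawn mainly by Col-0 replicate 1 at 24.3 and 19.0.

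Of the 24 mitochondrial loci with a descriptive note, 18 were tested, and 2 were lower and 0 higher, where 15.1% and 15.8% of all genes tested were. Their median log2 fold change was −0.33, and without Col-0 replicate 1 it was 0.01, with 1 lower and 1 higher. Among the loci with an ATP synthase note, ATMG01090 (noted as ATP synthase 9) had a log2 fold change of −1.09 ± 0.45 (edgeR adjusted p = 0.0805) and ATMG01190 (subunit 1) one of −0.75 ± 0.42 (adjusted p = 0.188). The chromosome 2 partner of ATMG01090 aligned to a mitochondrial stretch with no named gene listed under it. ATMG00410 (ATPase subunit 6-1) had −0.56 ± 0.57 (adjusted p = 0.482), with an SE as large as its value.

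Loci noted as parts of the electron transport chain spread on both sides of 0. ATMG01280 (cytochrome c oxidase subunit II-like) had a log2 fold change of −1.05 ± 0.46 (edgeR adjusted p = 0.0975) and ATMG00730 (cytochrome c oxidase subunit 3) one of −0.08 ± 0.60 (adjusted p = 0.934). No named gene was listed under the stretch to which the chromosome 2 partner of ATMG01280 aligned. ATMG00220 (apocytochrome b of complex III) had 0.50 ± 0.78 (adjusted p = 0.660) and ATMG00990 (NADH dehydrogenase 3 of complex I) −0.06 ± 0.90 (adjusted p = 0.969). The ribosomal protein loci ATMG00210 (L5) at 0.59 ± 0.86 and ATMG00290 (S4) at 0.22 ± 0.74 were not called either. The SEs of these low-count loci, 0.46 to 0.90, are wide beside most of the values.

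Among the loci with most counts, ATMG01390 stood at 13.9, 19.9 and 22.8 scaled CPM in nrpb2-3, against 60.5, 24.3 and 22.2 in Col-0 (log2 fold change −0.92 ± 0.41, edgeR adjusted p = 0.119). ATMG00020 stood at 16.9, 18.4 and 31.3 scaled CPM in nrpb2-3, against 50.6, 19.6 and 19.2 in Col-0 (−0.42 ± 0.47, edgeR adjusted p = 0.531). Neither was called, and the ranges overlapped for both. The highest fold change of the 47 was that of ATMG00070, at 1.48 ± 0.81 (edgeR adjusted p = 0.182).

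**Figure D5:**
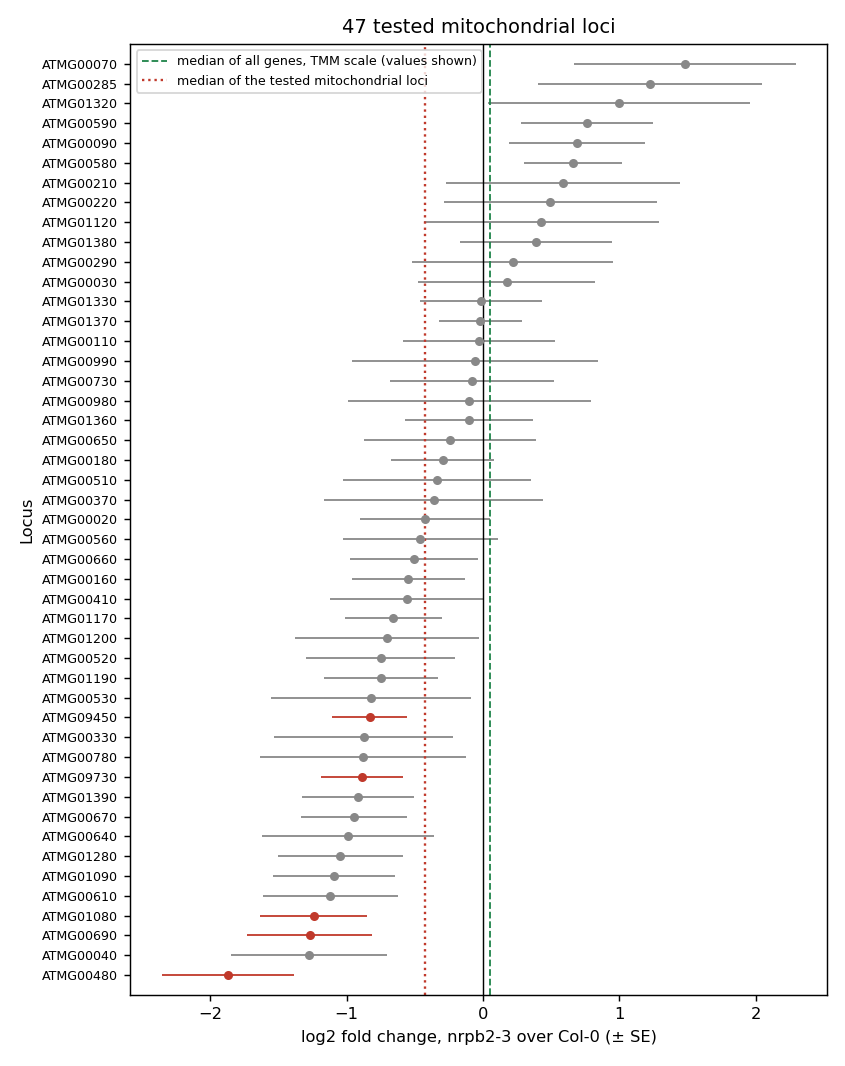
log2 fold change of nrpb2-3 over Col-0 (horizontal) with its SE for the 47 tested mitochondrial loci, in order. Red points are the 5 called lower, the dotted red line is the median of the 47 (−0.42) and the dashed green line the median of all genes tested (0.05). Most points, 35 of 47, lie left of 0.

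The direction of these medians depended on the scale. The TMM factors, which scale libraries by the bulk of their genes, were 1.183 to 1.47 in nrpb2-3 and 0.849 to 0.925 in Col-0. With library totals and no factor, the median of all genes in nrpb2-3 over Col-0 was 0.59 and that of the mitochondrial loci 0.16. On that scale 3 mitochondrial loci (ATMG00070, ATMG00580 and ATMG00590) were called higher and 1 (ATMG00480, at −1.34) lower. The share of all genes called on that scale is not given here.

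Against Col-0, neither FACT mutant had a mitochondrial locus called by edgeR. In ssrp1-2, 0 of 47 were higher and 0 lower, where 0.454% and 0.103% of all genes tested were (0.557% in either direction). At an unadjusted p under 0.05, 1 locus was lower and 0 higher, and DESeq2 called 0. The median log2 fold change was −0.31, with 36 of 47 negative, beside 0.00 for all genes, and it was also 0.00 without Col-0 replicate 1. ATMG00690 had the lowest unadjusted p, with 0.408, 0.465 and 0.302 scaled CPM in ssrp1-2, against 1.29, 0.664 and 0.537 in Col-0 (−1.08 ± 0.46, edgeR adjusted p = 0.488). The ranges did not overlap, but the difference was −0.61 without Col-0 replicate 1.

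In spt16-2, 0 of 47 were higher and 0 lower, where 0.376% and 0.044% of all genes tested were (0.42% in either direction). At an unadjusted p under 0.05, 1 locus was lower and 0 higher, and DESeq2 called 1 lower. That locus was ATMG01390, with 16.5, 14.1 and 11.8 scaled CPM in spt16-2, against 60.5, 24.3 and 22.2 in Col-0. Its log2 fold change was −1.33 ± 0.42 (edgeR adjusted p = 0.367; DESeq2 adjusted p = 0.0200). Over the 14 alternatives its adjusted p ran from 0.0200 to 0.752, and without Col-0 replicate 1 its fold change was −0.71. The median of the 47 was −0.21 with all libraries and 0.09 without Col-0 replicate 1.

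SPT16, the mutated gene, stood at 27.8, 55.4 and 30.0 scaled CPM in spt16-2, against 44.9, 62.0 and 54.6 in Col-0. The library labelled spt16-2 replicate 2 thus lay within the Col-0 range. In this library the flower markers AP3, PI, AG and SEP3 stood at 2.43, 3.92, 2.04 and 11.8 scaled CPM. In Col-0 they reached at most 0.234, 0.731, 1.93 and 1.90. Whether the label is right was not tested. Without spt16-2 replicate 2, 0 mitochondrial loci were called in spt16-2 and the median was −0.40. In ssrp1-2 the SSRP1 gene stood at 20.7, 19.7 and 17.9 scaled CPM, against 38.9, 48.4 and 44.2 in Col-0. In nrpb2-3 NRPB2 stood at 67.1 ± 1.96 scaled CPM, against 42.3 ± 5.43 in Col-0 (SD, n = 3 each); a level does not show whether the transcript carries the mutation.

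Between the FACT mutants, spt16-2 against ssrp1-2, edgeR called 0 mitochondrial loci, where 0.0537% of all genes tested were higher and 0.0147% lower (0.0684% in either direction). At an unadjusted p under 0.05 there were 0, and DESeq2 called 0. The median was 0.08, beside 0.00 for all genes, and fold changes ran from −1.53 (ATMG00530) to 1.44. With an SE of 0.79 for ATMG00530, the lack of calls does not show that the mutants are alike at these loci.

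Set against the mean of both FACT mutants, nrpb2-3 had 3 loci lower and 0 higher, where 15% of all genes tested were lower and 15.6% higher (30.6% in either direction). At an unadjusted p under 0.05, 5 were lower and 1 higher, and DESeq2 called 3 lower and 0 higher. ATMG00480 again came first, with 0.246, 0.428 and 0.204 scaled CPM in nrpb2-3, against 0.735, 1.09 and 0.907 in ssrp1-2 and 1.08, 1.35 and 0.429 in spt16-2. Every nrpb2-3 library lay below every FACT library, although nrpb2-3 replicate 2 and spt16-2 replicate 3 were nearly equal. The log2 fold change was −1.67 ± 0.44 (SE, edgeR adjusted p = 0.0113), and the call was lost only without nrpb2-3 replicate 3 (adjusted p = 0.0570), of 17 alternatives.

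ATMG01080 stood at 1.11, 1.09 and 0.579 scaled CPM in nrpb2-3, against 1.47, 2.30 and 2.27 in ssrp1-2 and 2.58, 2.28 and 0.992 in spt16-2. Its log2 fold change was −1.10 ± 0.35 (edgeR adjusted p = 0.0282), and the ranges overlapped through spt16-2 replicate 3. The call was lost in 3 of 17 alternatives: with library totals (adjusted p = 0.0957), without nrpb2-3 replicate 3 (adjusted p = 0.129) and without spt16-2 replicate 1. The third was ATMG00040, of no name here, at 0.103, 0.136 and 0.0851 scaled CPM in nrpb2-3, against 0.327, 0.465 and 0.353 in ssrp1-2 and 0.335, 0.196 and 0.188 in spt16-2. Its log2 fold change was −1.47 ± 0.50 (edgeR adjusted p = 0.0407). These are 5 to 7 counts per nrpb2-3 library, and the call was lost in 11 of 16 alternatives, the replicate block among them (adjusted p = 0.0511). This comparison and that with Col-0 share the nrpb2-3 libraries.

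Nuclear genes for the same respiratory complexes were read from a list of 41, all tested. In nrpb2-3 against Col-0, 24 were lower and 0 higher, where 15.1% and 15.8% of all genes tested were. The median log2 fold change of the 41 was −0.51. AT4G32470, a complex III subunit, stood at 123 ± 9.99 scaled CPM in nrpb2-3 and 189 ± 18.9 in Col-0 (−0.62 ± 0.12, edgeR adjusted p = 0.0018). ATP3, the gamma subunit of ATP synthase, stood at 236 ± 21.6 scaled CPM in nrpb2-3 and 357 ± 7.77 in Col-0 (−0.59 ± 0.11, adjusted p = 0.0018). GAMMA CA2, a carbonic anhydrase-like subunit of complex I, stood at 84.4 ± 9.21 scaled CPM in nrpb2-3 and 127 ± 2.85 in Col-0 (−0.59 ± 0.12, adjusted p = 0.0024; SD and n = 3 for all levels). With each Col-0 library left out in turn, 19 to 24 were lower. With library totals and no factor, 0 of the 41 were lower and 3 higher, with a median of 0.01 beside 0.59 for all genes. In ssrp1-2 and in spt16-2 against Col-0, 0 of the 41 were called by edgeR, and 0 had an unadjusted p under 0.05.

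Of the list of 26 nuclear genes for mitochondrial RNA factors, 3 were higher and 0 lower in nrpb2-3 against Col-0, with a median of 0.31. These 3 are 11.5% of the list, where 15.8% of all genes tested were higher. They were AT5G15700, a phage-type RNA polymerase (0.54 ± 0.19, edgeR adjusted p = 0.0480), the transcription termination factor family member SHOT1 (0.63 ± 0.21, adjusted p = 0.0398) and AT1G06710, a factor for transcript stability (0.80 ± 0.24, adjusted p = 0.0203). The organelle RNA polymerase gene AT1G68990 had 0.36 ± 0.22 (adjusted p = 0.228). Without Col-0 replicate 1, 0 of the 26 were called. With library totals 17 were higher, on a scale that also lifted the median of all genes. The share of all genes called on that scale is not given here, so no excess in the list can be read from the 17. In ssrp1-2 and spt16-2 edgeR called 0 of the 26, and 1 and 0 had an unadjusted p under 0.05.

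Of 17 genes for alternative respiration and mitochondrial stress, 13 were tested. In nrpb2-3 against Col-0, 4 were higher and 1 lower, where 15.8% and 15.1% of all genes tested were. Without Col-0 replicate 1 the counts were 4 and 1 of 15 tested. With library totals, which also lifted the median of all genes, they were 7 and 1 of 13. Higher were the alternative oxidase AOX1C (2.46 ± 0.765 scaled CPM in nrpb2-3 and 0.673 ± 0.190 in Col-0, edgeR adjusted p = 0.0023), the NAD(P)H dehydrogenase NDB4, the small heat shock protein gene AT5G51440 and the regulator NAC13. Lower was the dehydrogenase NDA1, at 23.1 ± 5.67 scaled CPM in nrpb2-3 and 48.6 ± 2.78 in Col-0 (−1.07 ± 0.18, adjusted p = 0.0010). In spt16-2, 3 of the 13 were higher and 0 lower, where 0.376% and 0.044% of all genes tested were. The 3 were AOX1C (1.89 ± 0.37, adjusted p = 0.0453), NDB4 (4.14 ± 0.67, adjusted p = 0.0158) and AT5G51440 (2.29 ± 0.37, adjusted p = 0.0152). Without Col-0 replicate 1, 1 of 15 was higher in spt16-2. In ssrp1-2, edgeR called 0 of the 13, and 2 had an unadjusted p under 0.05. AOX1A, the main stress-responsive oxidase, was not called in nrpb2-3 (−0.35 ± 0.16, adjusted p = 0.118).

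Markers of plant parts moved in the same libraries. All 4 leaf markers were lower in nrpb2-3 than in Col-0, where 15.1% of all genes tested were, and their median log2 fold change was −1.31. RBCS1A, the Rubisco small subunit gene, stood at 10419 ± 2834 scaled CPM in nrpb2-3 and 26742 ± 286 in Col-0. Of the 5 root markers, 2 were tested and edgeR called 0 (0 at an unadjusted p under 0.05). Over all libraries EXPA7, COBL9, PRP3 and PLT2 reached at most 0.102, 0.358, 0.319 and 0.0274 scaled CPM, while NRT2.1 ran from 1.31 to 13.4. Which plant parts the RNA came from was not tested. AG was the 1 flower marker of 4 that was lower in nrpb2-3. In ssrp1-2 and in spt16-2 against Col-0, 3 of the 4 flower markers (AP3, PI and SEP3) were higher, where 0.454% and 0.376% of all genes tested were. In both mutants edgeR called 0 of the 4 leaf markers (0 at an unadjusted p under 0.05). The part of these shifts in the mitochondrial values was not tested.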

How the data were processed

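The deposited table of raw counts per gene came from the authors' pipeline, for which the submitters' processing notes list the tools fastp 0.23.4 and HISAT2 2.2.1 and the build TAIR10; the counter, its strand setting and its handling of reads that fit several places are not given in the sources used here. The deposited table of scaled values per gene length, called TPM in its name, was read as a signal rescaled across libraries by the authors, since its columns do not share a total. Dividing counts by it gave implied lengths, calibrated on 8835 loci, of which 98.9% of values fell within 0.1%. PCR copies were not told apart by molecular tags, so intervals and floors describe counting error alone.

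Counts were tested in R 4.3.3 with edgeR 4.0.16: filterByExpr with a minimum count of 10, scaling by TMM, and one quasi-likelihood model (robust) with the genotype as factor over the 12 libraries, with Benjamini-Hochberg adjustment over all genes tested. The procedure was first tested on simulated data. Levels are given in scaled CPM, their error as the SD of a genotype's 3 libraries, and fold changes carry the SE of the fit. Alternatives were RLE size factors, library totals, DESeq2 1.42.0 (which gives no adjusted p for some low-count loci), no filter, the replicate number as a block, limma-trend (limma 3.58.1) on log2 of the scaled value plus 1 (at least 1 in 3 libraries), the libraries compared alone, each library left out, and, for the share, other members or denominators. Summing each locus with its chromosome 2 partner was added after seeing the data.

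Same-numbered libraries of different genotypes deviated together in 16 of 18 pairs (correlation over 0.1; range −0.0514 to 0.375), but not in every pair of nrpb2-3 or of ssrp1-2 with Col-0; in the other 3 comparisons each pair did. The pairing comes from the data and not from the labels.

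Members and gene lists were chosen with earlier results of these data known. Named loci are the 10 highest per length, up to 6 called per comparison and direction, those whose share of mitochondrial counts did not overlap with Col-0 (loci averaging 50 counts or more in either group), those at the edge of 10 counts, those at 0 in a genotype with at least 10 counts in another, and others to say that they were not called. Loci called under an alternative alone were named after their values were seen. From the lists, up to 4 called genes per comparison with Col-0 are named. Product names come from notes of RefSeq's TAIR10.1 annotation, present for 38 of the 102 loci and descriptive for 24. A note need not match the mitochondrial gene under the aligned partner. For ATMG01090 and ATMG01280 no named gene was listed there, and for ATMG00590 the gene listed was nad4.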

Additional observations from a re-analysis of the deposited data

How the results depend on the processing

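Shares of all genes called under the alternatives are not given here. With library totals in place of TMM, the mitochondrial loci called in nrpb2-3 against Col-0 were 3 higher and 1 lower. Against the mean of the FACT mutants they were 2 higher and 1 lower. With the libraries compared alone, 2 were lower in nrpb2-3 against Col-0, and with no filter on low counts 1 was higher against the FACT mutants. DESeq2 called 1 lower in spt16-2 against Col-0. Leaving out 1 library at a time gave 0 to 2 higher and 1 to 7 lower for nrpb2-3 against Col-0, and 0 to 1 higher and 0 to 3 lower for nrpb2-3 against the FACT mutants. In the fit with the replicate number as a block, 4 were lower in nrpb2-3 against Col-0 and 2 against the FACT mutants, and 0 were called in the other 3 comparisons. The counts of 0 in ssrp1-2 against Col-0 and in spt16-2 against ssrp1-2 held in each alternative run. No locus called with all libraries changed sign in any of them. Without the 3 loci with most counts, the mean mitochondrial share was 0.00421% in nrpb2-3, 0.00342% in ssrp1-2, 0.00347% in spt16-2 and 0.00398% in Col-0. With the loci from AT2G07660 to AT2G07840 added it was 0.0192% in nrpb2-3, 0.0135% in ssrp1-2, 0.0131% in spt16-2 and 0.0162% in Col-0. The cause of these shifts was not tested, beyond the fewer libraries or other loci that each alternative holds. Depth limits the loci with few counts: 55 of 102 could not be tested, and copies on chromosome 2 cannot be told apart from their mitochondrial genes.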
